A study of Homo sapiens with 6 samples.

Results

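The genes described here encode the subunits of respiratory complexes II, III, IV and V that are made from nuclear DNA, together with CYCS, the electron carrier cytochrome c. They were chosen by gene symbol alone: SDHA to SDHD for complex II, symbols that begin with UQCR and CYC1 for complex III, COX4 to COX8 for complex IV, ATP5 for complex V, and CYCS. This rule found 52 of the 20532 genes in the count table: 4 for complex II, 10 for complex III, 17 for complex IV, 20 for complex V, and CYCS. It used no measured value. The rule also takes in the inhibitor ATP5IF1 and the read-through gene ATP5MF-PTCD1, which joins a subunit gene to its neighbour.

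Complexes II to V lie in the inner mitochondrial membrane. Complex II oxidises succinate and passes the electrons to ubiquinone, complex III hands them from ubiquinol to cytochrome c, and complex IV uses them to reduce oxygen. Complexes III and IV pump protons, and complex V, the ATP synthase, lets protons flow back through a ring of c subunits and couples this to ATP synthesis. Complexes III to V are mosaics of subunits encoded in the nucleus and in mitochondrial DNA, while complex II is wholly nuclear, and several subunits of complexes IV and V come from sets of paralogous genes with different tissue ranges.

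RNA was sequenced from MDA-MB-231 M3, a derivative of the human breast cancer line MDA-MB-231 that the labels describe as bone-metastatic. There were 3 control samples and 3 samples in which PRMT1, an arginine methyltransferase, was knocked down with siRNA (siPRMT1). The labels call the controls untreated or control and name no control siRNA, so an effect of transfection and one of the knockdown cannot be told apart. They call the samples biological replicates but mention no separate cultures or transfections, so p-values measure only how far these samples differ, a spread that may be technical.

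Counts assigned to genes ranged from 16968563 to 20545995 per library. PRMT1 fell from 146.1 to 11.91 CPM, 12.3-fold, with no overlap between groups. CPM, the usual per-library normalised count, was computed here on TMM-scaled library totals, and TMM is a scaling that assumes that most genes do not change. The line's markers VIM, CD44, EGFR, KRT8 and KRT18 were present in every library and ESR1 and PGR were at or below 0.150 CPM. Of the 9 identity genes looked at, 7 had enough counts to be tested, EPCAM and ERBB2 among them. The 6 leukocyte markers summed to 203.2 to 207.6 CPM in controls and 376.2 to 382.2 CPM after siPRMT1, nearly all of it CD68, a lysosomal protein that is not restricted to leukocytes. PTPRC was at or below 0.183 CPM and CD3E at or below 0.0620 CPM. The 5 endothelial markers summed to 25.4 to 26.4 CPM in controls and 20.3 to 21.2 CPM after siPRMT1, nearly all of it PECAM1 (21.03 and 20.03 CPM, not passing) and KDR, which fell from 4.41 to 0.54 CPM, with CDH5, VWF and TEK at or below 0.320 CPM. The 5 bone cell markers summed to 3.70 to 4.61 CPM in controls and 7.23 to 7.45 CPM after siPRMT1: BGLAP rose from 1.11 to 3.96 CPM, CTSK was at 2.83 and 2.82 CPM, ACP5 at 0.141 and 0.535 CPM (too low to test), and SP7 and IBSP at or below 0.0620 CPM. The part of these markers' RNA in the results was not tested. In bulk RNA, more RNA per cell and more cells that carry it cannot be told apart.

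Most of the respiratory subunit genes were higher after siPRMT1. Of the 52, 46 had enough counts to be tested, and 44 of these rose, 1 fell and 1 did not pass (edgeR quasi-likelihood test, Benjamini-Hochberg adjusted p under 0.05 over all 13710 genes tested). Changes were very common in this comparison: 89.3% of all tested genes were called, 44.3% higher and 45.0% lower, so a call alone sets no gene apart, and the count to read is the 44 of 46 that were higher. Among all genes with short transcripts the share called higher was larger, as given below by length. The median log2 fold change was 1.07 for the 46 genes and -0.01 for all tested genes. A rise of at least 2-fold was seen for 27 of the 46, against 15.3% of all tested genes.

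Summed over all 52 genes, the level was 6786, 6766 and 6737 CPM in the control libraries and 12300, 12330 and 12360 CPM in the siPRMT1 libraries. The groups were far apart compared with the spread within each, and the ratio of the means was 1.82. The total differs in size by complex: the ratio was 1.35 for complex II, 1.86 for complex III, 2.23 for complex IV and 1.75 for complex V. For cytochrome c it was 0.645. When libraries were scaled by their total count alone, the median of all genes shifted by -0.32 (log2), the ratio over the 52 genes became 1.46, and 37 were higher and 7 lower, the 7 being CYCS, SDHC, SDHD, UQCRC2, COX7A2L, ATP5MC3 and ATP5MG. That scaling also moved the share of higher among all called genes from 49.6% to 37.7%.

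**Figure D1:**
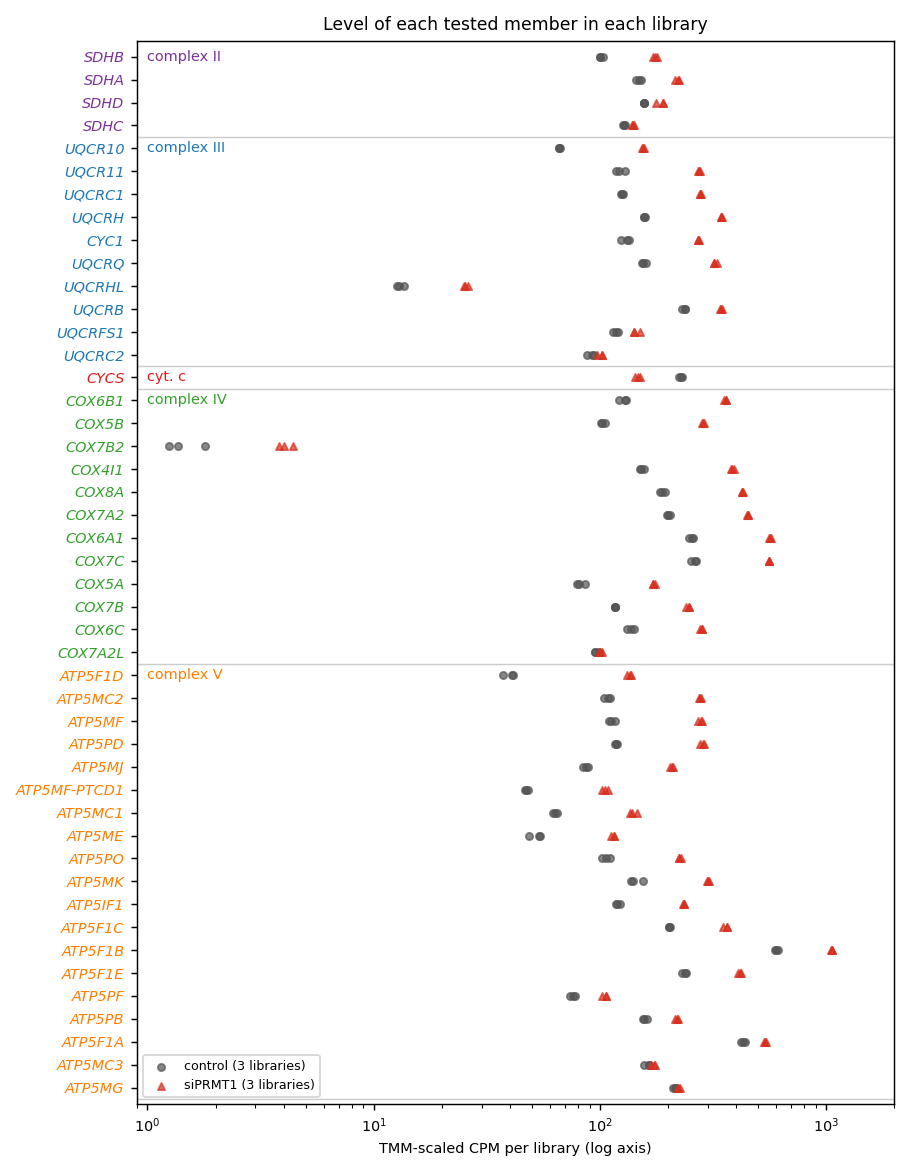
TMM-scaled CPM on a log axis for each of the 46 tested genes, ordered by complex and by fold change within it. Grey circles are the 3 control libraries and red triangles the 3 siPRMT1 libraries. The triangles lie to the right of the circles for all genes but CYCS, where they lie left, and COX7A2L, where the groups overlap. Calls were made for 89.3% of all tested genes, and the share of all genes whose groups do not overlap is not given here. When libraries are scaled by their total count alone, the fold changes of SDHC, SDHD, UQCRC2, UQCRFS1, COX7A2L, ATP5MC3 and ATP5MG also turn negative.

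The fold changes of all genes in these libraries moved with transcript length and base composition, so corrected values are given beside the main results. Among genes whose canonical GENCODE 44 transcript is 2000 bases or longer, the median log2 fold change was -0.32 (10180 genes), and among genes of 600 to 1000 bases it was 1.01 (681 genes). By GC content, the medians ran from -0.92 below 42% (3477 genes) to 0.77 at 54% and above (4657 genes). The corrected fit removes a smooth curve in GC content and length from each library before the test. In it, 36.8% of all tested genes were higher and 43.4% lower, and of the 46 respiratory genes 43 were higher, SDHC and CYC1 were lower and ATP5MG did not pass. The median of the 46 fell from 1.07 to 0.59, with -0.06 for all genes. In that fit 5 of the 46 rose at least 2-fold, against 549 of all 13710 tested genes. What produces the relation with length and GC content was not tested.

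Within each length class the respiratory genes had a higher median than all genes, narrowly below 2000 bases. The 11 under 600 bases had a median log2 fold change of 1.15 against 0.98 for all 312 genes of that size, the 12 of 600 to 1000 bases had 1.25 against 1.01, and the 12 of 1000 to 2000 bases had 0.82 against 0.71. The gap was wider for long transcripts: the 11 of 2000 bases or more, CYCS and COX7A2L among them, had a median of 0.47 against -0.32. In the same order of length, 73.1%, 83.6%, 74.2% and 33.5% of all genes were called higher. Of the respiratory genes all 11, all 12, all 12 and 9 of 11 were. By GC content the medians were 0.48 against -0.92 below 42% (13 of the 46 genes), 1.06 against -0.42 from 42 to 48% (15 genes), 1.15 against 0.11 from 48 to 54% (10 genes) and 1.15 against 0.77 at 54% and above (8 genes). Across the 46 genes, which share libraries, the log2 fold change had a Pearson correlation of -0.62 with log2 transcript length (Spearman -0.60) and 0.58 with GC content (Spearman 0.61). After correction these were 0.15 and -0.52 (Spearman -0.06 and -0.49), so the relation with GC content changed sign for these genes rather than vanishing.

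**Figure D2:**
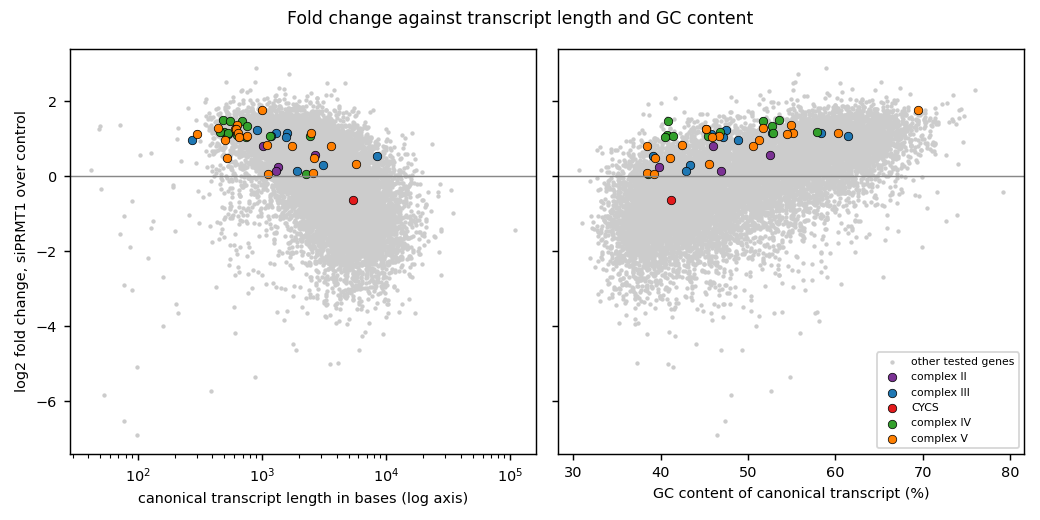
Log2 fold change of every tested gene (grey) and of the 46 respiratory genes (coloured by complex) against the length of the canonical transcript (left, log axis) and its GC content (right). All genes fall with length and rise with GC content; the 13 respiratory genes below 42% GC have a median of 0.48 where all genes there have -0.92.

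All 4 complex II genes rose, but none by 2-fold, with a median log2 fold change of 0.41 (0.25 corrected). SDHB, the iron-sulphur subunit, rose most. Its level was 99.8, 99.6 and 102.6 CPM in controls and 178.7, 175.1 and 171.9 CPM after siPRMT1, a log2 fold change of 0.80 ± 0.026 (SE, here and below; adjusted p = 2.25e-117). SDHA, the flavoprotein that binds succinate, was at 144.9, 152.1 and 149.2 CPM in controls and 222.8, 215.3 and 220.9 CPM after siPRMT1, a log2 fold change of 0.56 ± 0.023 (adjusted p = 7.01e-87). Both catalytic subunits were higher in every siPRMT1 library than in any control, and remained higher when corrected (0.35 and 0.25).

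The membrane anchors of complex II, SDHC and SDHD, which hold the haem and the ubiquinone site, had smaller changes whose direction depends on the scaling. SDHC was at 129.5, 127.1 and 126.4 CPM in controls and 138.4, 140.7 and 140.1 CPM after siPRMT1, a log2 fold change of 0.13 ± 0.026 (adjusted p = 1.30e-06) that became -0.30 when corrected and -0.19 with scaling by total count. SDHD was at 155.7 to 156.4 CPM in controls and at 176.6, 189.4 and 189.5 CPM after siPRMT1, a log2 fold change of 0.25 that stayed at 0.24 when corrected and became -0.07 with scaling by total count. The groups did not overlap for either gene, yet the shifts are small beside the choice of scale.

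All 10 complex III genes rose, 6 of them at least 2-fold, with a median of 1.06 (0.66 corrected). The accessory subunits had a median of 1.09 over 6 genes (0.74 corrected) and the core subunits 0.68 over 4 (0.10 corrected). UQCR10, a small accessory subunit near cytochrome c1, had the largest rise: 65.8, 65.8 and 66.4 CPM in controls against 154.8, 152.9 and 156.5 CPM, a log2 fold change of 1.23 ± 0.029 (adjusted p = 1.22e-168; 0.69 corrected). The other small subunits UQCR11 (1.16; 0.34 corrected), UQCRH (1.14; 0.79) and UQCRQ (1.05; 0.68) were close to it before correction. UQCRB rose by 0.55 and its corrected value was 1.76, the largest of all 46; its canonical transcript is 8459 bases long, and whether that transcript is the one expressed here was not tested.

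The core subunits of complex III split. UQCRC1, a core protein facing the matrix, rose by 1.15 and UQCRC2, its partner, by 0.14. The levels of UQCRC2 were 94.4, 92.0 and 87.5 CPM in controls and 102.1, 101.6 and 97.2 CPM after siPRMT1 (SE 0.030, adjusted p = 1.25e-05), the smallest rise in the complex, and it became -0.18 with scaling by total count. UQCRFS1, the Rieske iron-sulphur protein, was at 120.6, 117.6 and 113.9 CPM in controls and 141.3, 141.9 and 149.6 CPM after siPRMT1, a log2 fold change of 0.30 ± 0.027 (adjusted p = 1.91e-25), -0.02 with scaling by total count and 0.65 when corrected. CYC1, cytochrome c1, was at 123.6, 131.1 and 134.3 CPM in controls and 271.8, 273.4 and 271.0 CPM after siPRMT1, a log2 fold change of 1.07 ± 0.023 (adjusted p = 1.15e-188). CYC1 has a GC content of 61.5%, and its corrected value was -0.30, called lower, so its direction rests on that correction. The corrected value of UQCRC1, at 58.3% GC, was 0.06.

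UQCRHL is an intronless copy of UQCRH with 98.6% identity over 276 coding bases, so reads could be split between them by the counting. UQCRHL was at 12.9, 12.7 and 13.6 CPM in controls and 26.0, 25.2 and 25.0 CPM after siPRMT1 (log2 fold change 0.96 ± 0.064, adjusted p = 8.27e-42), and UQCRH at 156.3 to 157.5 and 343.5 to 345.9 CPM. UQCRHL made up 7.69% ± 0.24 (SD, n = 3) of the counts of the pair in controls and 6.86% ± 0.15 after siPRMT1. Values for UQCRHL are uncertain for this reason.

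CYCS was the only gene of the 46 to fall. Cytochrome c carries electrons from complex III to complex IV and, released from mitochondria, takes part in apoptosis. Its gene (chr7:25118656-25125260 in hg38, minus strand) was at 227.7, 224.1 and 229.3 CPM in controls and 142.9, 146.6 and 149.7 CPM after siPRMT1, so every siPRMT1 library was below every control. The log2 fold change was -0.63 ± 0.023 (adjusted p = 4.40e-102), and -0.95 with scaling by total count. Its canonical transcript is 5432 bases long with 41.2% GC, and its corrected value was 0.23, called higher (adjusted p = 3.24e-12). GENCODE 44 lists 42 CYCS pseudogenes, more than for any other of the 52 genes, and the handling of reads shared with them is unknown from the sources used here.

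Nearly all measured subunits of complex IV rose by 2-fold or more. Of its 17 genes 12 were tested, 11 of them rose, all by at least 2-fold, and COX7A2L did not pass. The median was 1.16 (0.70 corrected), and in the corrected fit all 12 were higher, 3 by at least 2-fold. COX6B1, which faces the intermembrane space, rose most: 121.8, 130.9 and 128.7 CPM in controls against 362.1, 352.9 and 360.1 CPM, a log2 fold change of 1.496 ± 0.022 (adjusted p = 8.10e-265; 0.69 corrected). COX5B, the zinc-binding subunit, was at 102.3, 104.7 and 101.4 CPM in controls and 283.8, 287.9 and 283.3 CPM after siPRMT1, a log2 fold change of 1.47 ± 0.024 (adjusted p = 4.74e-244; 0.68 corrected). Neither gene's libraries overlapped between groups.

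COX4I1, a subunit that joins early and a site of regulation by ATP, was at 151.8, 156.8 and 149.5 CPM in controls and 382.2, 380.8 and 390.2 CPM after siPRMT1 (log2 fold change 1.33 ± 0.021, adjusted p = 3.08e-253; 0.46 corrected). COX5A, which assembles with COX4I1, was at 85.4, 80.4 and 78.9 CPM in controls and 175.8, 171.0 and 172.2 CPM after siPRMT1 (1.08 ± 0.028, adjusted p = 1.19e-157; 0.70 corrected). The other widely expressed subunits had log2 fold changes in a narrow band: COX8A 1.18, COX6A1 1.15, COX7C 1.10, COX7B 1.08 and COX6C 1.04. After correction the band widened, from 0.07 for COX8A to 1.37 for COX7B. Per kilobase of transcript, COX6A1 had the highest level of all 52 genes, 472.5 ± 8.7 CPM per kilobase (SD, n = 3) in controls and 1049 ± 10 after siPRMT1.

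Within the COX7A set the paralogs parted. COX7A2 is the form found in most tissues, and COX7A2L, also known as SCAF1, links complexes III and IV into supercomplexes. COX7A2 was at 197.3, 202.9 and 199.7 CPM in controls and 448.2, 451.3 and 449.9 CPM after siPRMT1 (log2 fold change 1.17 ± 0.018, adjusted p = 9.39e-249). COX7A2L was at 95.0, 99.5 and 95.5 CPM in controls and 99.1, 102.1 and 100.1 CPM after siPRMT1, overlapping groups (0.06 ± 0.030, adjusted p = 0.0603; 0.48 corrected, called higher). As a share of the set's counts, COX7A2L went from 32.5% ± 0.28 (SD, n = 3) to 18.2% ± 0.17. The libraries of the groups did not overlap in that share, and the exact two-sided permutation p was 0.1, the smallest that 3 against 3 allows. The corrected values still differ, 0.83 for COX7A2 and 0.48 for COX7A2L.

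The tissue-restricted paralogs of complex IV were near or below detection, as were the muscle markers. COX4I2 (lung), COX6A2 (heart and skeletal muscle) and COX8C (testis) had no count in any library. This allows up to 0.146 to 0.177 CPM on unscaled library totals, not the TMM-scaled ones used elsewhere (3 counts, counting error only). COX7A1, the heart and skeletal muscle form, had 5, 4 and 4 counts in controls and 1, 5 and 6 after siPRMT1, and COX6B2, a testis form, had 2, 2 and 2 against 4, 12 and 8. These 5 genes and ATP5MGL, which had 1 count in all, did not pass the filter on low counts. The 6 striated muscle markers summed to at most 0.200 CPM. COX7B2 is the exception among low genes: it had 30, 25 and 38 counts in controls and 71, 70 and 61 after siPRMT1, a log2 fold change of 1.46 ± 0.17 (adjusted p = 6.83e-16; 1.39 corrected). It made up 1.25% ± 0.24 (SD, n = 3) of the counts of COX7B and COX7B2 in controls and 1.64% ± 0.12 after siPRMT1. Per kilobase of transcript its shares were 5.3% and 6.8%, so COX7B supplied most of the transcripts in each group.

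All 19 tested complex V genes rose, 10 of them at least 2-fold, with a median of 1.06 (0.59 corrected), but the range was the widest of the complexes, from 0.06 to 1.76. In the F1 head, which makes ATP, the catalytic beta subunit gene ATP5F1B was at 591.6, 597.1 and 611.9 CPM in controls and 1045, 1063 and 1064 CPM after siPRMT1, a log2 fold change of 0.82 ± 0.016 (adjusted p = 3.26e-203; 0.31 corrected). The alpha subunit gene ATP5F1A was at 436.0, 429.3 and 421.0 CPM in controls and 536.6, 532.8 and 543.2 CPM after siPRMT1, a log2 fold change of 0.33 ± 0.018 (adjusted p = 9.61e-59; 0.97 corrected) that was 0.01 and did not pass with scaling by total count. Alpha and beta alternate in the head in equal number. Their order by fold change turned with the correction.

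The central stalk genes of F1 rose as well, and ATP5F1D by the most of all 46. ATP5F1D, the delta subunit, was at 40.7, 37.2 and 41.4 CPM in controls and 137.2, 131.6 and 135.0 CPM after siPRMT1, a log2 fold change of 1.76 ± 0.034 (adjusted p = 5.63e-208). Its transcript has the highest GC content of the 46, 69.5%, and its corrected value was 0.20. The gamma subunit gene ATP5F1C rose by 0.82 (0.60 corrected) and the epsilon subunit gene ATP5F1E by 0.82 (1.58 corrected). ATP5IF1, which binds F1 and blocks ATP hydrolysis when the proton gradient collapses, was at 122.2, 117.5 and 118.5 CPM in controls and 233.0, 234.2 and 235.3 CPM after siPRMT1, a log2 fold change of 0.97 ± 0.024 (adjusted p = 1.25e-163; 0.31 corrected). Its siPRMT1 libraries were all above its controls.

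The peripheral stalk, which keeps the head from turning with the rotor, had a median of 0.78 over 4 genes (0.75 corrected). ATP5PD rose by 1.27, ATP5PO by 1.08, and ATP5PB (0.47) and ATP5PF (0.48) by less, but this order did not hold in the corrected fit, where ATP5PB was highest (0.95), followed by ATP5PD (0.91), ATP5PO (0.59) and ATP5PF (0.41). ATP5PF lies across from GABPA on the opposite strand of chromosome 21 and overlaps it, and GABPA fell by 1.19 (-0.06 corrected, adjusted p = 0.338, not passing); the strand setting of the counting is unknown from the sources used here, and without strand the reads of such a pair cannot be told apart. Of the small membrane subunits ATP5MF rose by 1.30, ATP5MJ by 1.27, ATP5ME by 1.13 and ATP5MK by 1.06. These 4 had corrected values of 0.55 to 0.91. The read-through ATP5MF-PTCD1, which overlaps ATP5MF on the same strand and cannot be fully separated from it, was at 47.3 CPM in controls and 104.9 after siPRMT1.

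ATP5MG, subunit g, which takes part in dimers of the synthase, had a far smaller value than the other 4 tested small membrane subunits. It was at 210.0, 217.3 and 214.9 CPM in controls and 221.4, 221.4 and 225.8 CPM after siPRMT1, a log2 fold change of 0.06 ± 0.021 (adjusted p = 0.00849). The groups did not overlap, but the rise was 1.04-fold, turned to -0.26 with scaling by total count, and did not pass in the corrected fit (0.03, adjusted p = 0.160) or without control replicate 1 (0.04, adjusted p = 0.113). Its copy ATP5MGL, with 93.7% identity over 303 coding bases, had 1 count.

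**Figure D3:**
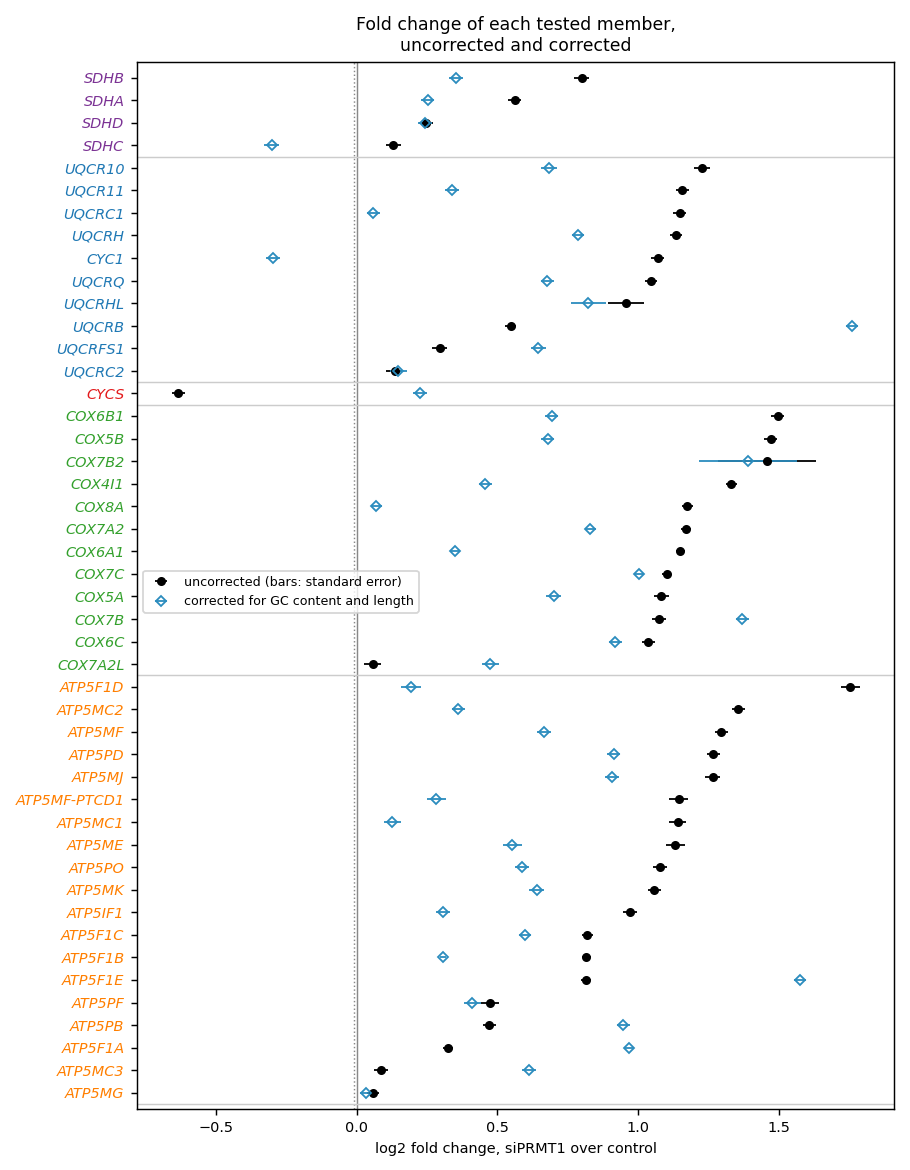
Log2 fold change, siPRMT1 over control, of the 46 tested genes, ordered by complex. Black circles are the uncorrected fit and blue open diamonds the fit corrected for GC content and length, bars are standard errors, the solid line is 0 and the dotted line the median of all genes (-0.01). Complex IV clusters near 1.16 apart from COX7A2L, and SDHC, CYC1 and CYCS lie on opposite sides of 0 in the fits; when libraries are scaled by their total count alone, SDHC, SDHD, UQCRC2, UQCRFS1, COX7A2L, ATP5MC3 and ATP5MG turn negative.

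The c subunit, which forms the rotor ring, is made from 3 genes. ATP5MC1, ATP5MC2 and ATP5MC3 encode precursors of 136, 141 and 142 residues with different import sequences, and their last 77 residues, which hold the mature subunit, are identical. The coding bases of that part are printed to show what lets reads from it be told apart: they differ at 57 of 231 positions, all without a change in the protein. The whole coding sequences are less alike, with 71.7% to 77.4% of aligned bases identical, so reads from their other parts can be told apart too. The bases printed are from the canonical GENCODE 44 transcripts, 5′ to 3′, with capitals at positions where the 3 genes are not all the same.
ATP5MC1: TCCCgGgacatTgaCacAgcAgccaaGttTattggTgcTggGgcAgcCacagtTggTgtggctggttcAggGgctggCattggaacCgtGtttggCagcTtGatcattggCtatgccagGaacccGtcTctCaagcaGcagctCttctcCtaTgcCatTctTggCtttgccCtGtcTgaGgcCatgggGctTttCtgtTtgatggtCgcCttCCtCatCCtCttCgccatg
ATP5MC2: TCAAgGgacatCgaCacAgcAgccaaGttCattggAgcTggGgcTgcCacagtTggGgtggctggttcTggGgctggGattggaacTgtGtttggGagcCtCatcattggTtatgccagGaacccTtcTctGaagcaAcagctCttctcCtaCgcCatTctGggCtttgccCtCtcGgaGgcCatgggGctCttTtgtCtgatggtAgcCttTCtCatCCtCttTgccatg
ATP5MC3: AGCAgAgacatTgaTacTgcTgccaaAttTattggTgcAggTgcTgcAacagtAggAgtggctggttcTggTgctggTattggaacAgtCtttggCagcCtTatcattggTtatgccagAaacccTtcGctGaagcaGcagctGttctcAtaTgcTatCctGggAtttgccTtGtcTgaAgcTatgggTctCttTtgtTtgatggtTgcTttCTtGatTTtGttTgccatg
ATP5MC1 and ATP5MC2 share 88.3% of these bases, and ATP5MC3 shares 80.1% with each.

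All 3 rose, ATP5MC3 by far less than the others in the uncorrected fit. ATP5MC1 (chr17:48892765-48895871) was at 64.9, 63.4 and 62.1 CPM in controls and 138.6, 136.1 and 146.2 CPM after siPRMT1, a log2 fold change of 1.14 ± 0.030 (adjusted p = 3.54e-150). ATP5MC2 (chr12:53632726-53676398) was at 104.4, 108.1 and 111.1 CPM in controls and 274.5, 278.1 and 275.8 CPM after siPRMT1 (1.36 ± 0.024, adjusted p = 6.01e-228). ATP5MC3 (chr2:175176258-175181710) was at 164.7, 165.1 and 157.2 CPM in controls and 168.4, 175.3 and 173.1 CPM after siPRMT1 (0.09 ± 0.024, adjusted p = 0.00043), and was -0.23 with scaling by total count. In the controls ATP5MC3 had the most counts of the 3, and after siPRMT1 ATP5MC2 did.

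As shares of the set's counts, ATP5MC3 went from 48.6% ± 0.93 (SD, n = 3) to 29.3% ± 0.42, ATP5MC2 from 32.3% ± 1.2 to 46.9% ± 0.49 and ATP5MC1 from 19.0% ± 0.35 to 23.8% ± 0.74. For all 3 shares the groups did not overlap and the exact two-sided permutation p was 0.1, the smallest that 3 against 3 allows. Per kilobase of transcript ATP5MC2 had the largest share in each group, 51.5% and 60.6%, ATP5MC3 went from 18.9% to 9.24%, and ATP5MC1 was at 29.6% and 30.1% (exact p = 0.6). ATP5MC3 has the longest transcript of the set, 2587 bases against 646 and 632, and the lowest GC content, 38.5% against 55.1% and 54.9%. In the corrected fit the order turned, with 0.61 for ATP5MC3, 0.36 for ATP5MC2 and 0.13 for ATP5MC1.

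**Figure D4:**
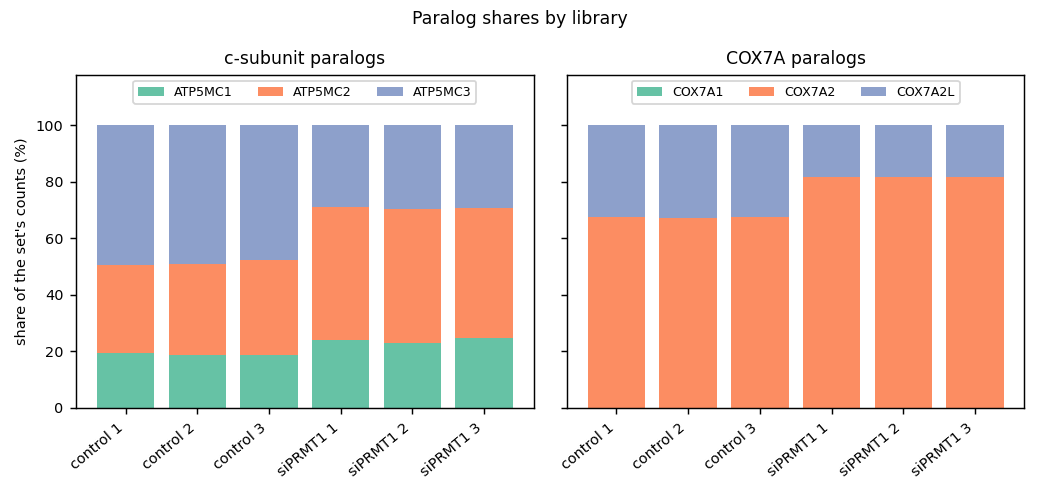
Share of the counts of each paralog set in each of the 6 libraries, for the c subunit genes (left) and the COX7A genes (right); bars add to 100%. ATP5MC3 falls from 48.6% to 29.3% and COX7A2L from 32.5% to 18.2%, and the 3 libraries of a group are nearly alike; no correction for GC content or length enters these shares.

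The promoters of these genes are known to hold sites for NRF1, for ETS factors such as GABPA, and for YY1. RefSeq promoter sequences (GRCh38.p14, 250 bases before to 50 after the start) were matched by symbol for 39 of the 52 genes. Exact matches on either strand were sought to GCGCNTGCG for NRF1, CCGGAAGT for ETS factors and AAGATGGCG for YY1. In these 39 promoters no match to 1 motif overlapped a match to another, while the NRF1 letters, nearly the same on both strands, matched at adjacent positions in ATP5F1C and SDHD. The NRF1 letters were in 14 of the 39 (35.9%) and in 8.05% of 27305 promoters. The ETS letters were in 8 (20.5%) against 4.44%, and the YY1 letters in 3 (7.69%) against 1.85%. A match is a description of letters and not evidence of binding.

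Promoters are shown, as the last 170 bases before the start, for genes that span the range of responses and of matches, with matched letters in capitals. SDHA has NRF1 matches beginning 165, 116, 67 and 18 bases before the start and rose by 0.56. UQCR11 has ETS letters at 117 and NRF1 letters at 29 and 10 bases before the start and rose by 1.16. COX5B has ETS letters at 37 and 5, the last running past the end shown, and rose by 1.47. CYCS, the gene that fell, has no exact match to these letters in the window. COX7A2L, which did not pass, has none either, nor do several genes that rose, COX6B1 (1.496) and COX4I1 (1.33) among them. Whether matches go with the response was not tested.
SDHA, chr5:218150-218319, plus strand: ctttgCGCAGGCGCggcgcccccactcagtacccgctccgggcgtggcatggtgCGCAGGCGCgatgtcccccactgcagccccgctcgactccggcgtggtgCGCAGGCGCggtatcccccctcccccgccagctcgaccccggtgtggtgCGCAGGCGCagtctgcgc
UQCR11, chr19:1605463-1605632, minus strand: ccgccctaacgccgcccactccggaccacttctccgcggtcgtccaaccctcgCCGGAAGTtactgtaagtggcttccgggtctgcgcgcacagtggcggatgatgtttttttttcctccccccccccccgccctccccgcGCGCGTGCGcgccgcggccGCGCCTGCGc
COX5B, chr2:97645892-97646061, plus strand: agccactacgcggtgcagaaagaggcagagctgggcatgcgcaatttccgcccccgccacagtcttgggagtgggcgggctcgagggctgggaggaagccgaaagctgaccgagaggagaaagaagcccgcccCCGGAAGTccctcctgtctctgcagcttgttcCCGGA
CYCS, chr7:25125261-25125430, minus strand: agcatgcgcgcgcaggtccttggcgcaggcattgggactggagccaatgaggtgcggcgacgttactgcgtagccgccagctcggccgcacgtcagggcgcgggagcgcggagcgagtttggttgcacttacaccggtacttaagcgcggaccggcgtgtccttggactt

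Some of the genes share such a start region with a neighbour that is read the other way. Of 12 tested neighbours whose start lies within 1000 bases, 8 rose and 4 fell, with a median of 0.58. Of all tested genes 44.3% were higher and 45.0% lower. The values in this paragraph are uncorrected for GC content and length, and corrected values of the neighbours are not given here. The widest split was on chromosome X: COX7B was at 116.8, 115.9 and 115.9 CPM in controls and 247.1, 246.5 and 240.6 CPM after siPRMT1 (log2 fold change 1.08), while MAGT1, a magnesium transporter and oligosaccharyltransferase gene whose start is 169 bases away, fell by 1.67 (adjusted p = 1.13e-181). CCDC127 beside SDHA (-0.18), KIN beside ATP5F1C (-0.39) and PDCD11 beside ATP5MK (-0.30) also fell. TIMM8B beside SDHD (1.18) and ZMAT5 beside UQCR10 (1.47) rose with their neighbour. Opposite calls were made in 281 of all 1170 tested pairs of this kind (24.0%), against 4 of these 12. GDF9 (0.99), EMC8, MYL5 and WDR77 overlap UQCRQ, COX4I1, ATP5ME and ATP5PB on the other strand, so their values may share reads.

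The mitochondrial genes that complete complexes III to V rose with the nuclear ones. All 6 were higher, with a median log2 fold change of 1.18 (0.97 corrected): MT-CYB 1.49 (1.05 corrected), MT-CO2 1.41 (0.96), MT-ATP6 1.31 (0.98), MT-CO3 1.06 (0.57), MT-ATP8 0.99 (1.66) and MT-CO1, the catalytic core of complex IV, 0.68 (0.36). MT-ATP8 (bases 8366 to 8572) and MT-ATP6 (8527 to 9207) overlap on the same strand, so their values may share reads. The corrected value of MT-ATP8 rests on an annotated length of 207 bases. The balance of mitochondrial to nuclear counts moved in different directions by complex. The ratio went from 1.57 ± 0.030 (SD, n = 3) to 2.37 ± 0.018 in complex III and from 1.67 ± 0.072 to 2.26 ± 0.052 in complex V, and from 13.3 ± 0.27 to 11.5 ± 0.043 in complex IV. The groups did not overlap in any of the 3 ratios, each with the smallest exact permutation p that 3 against 3 allows, 0.1. In complex IV, MT-CO1 made up 13640 of the 22910 mitochondrially encoded CPM in controls and rose 1.605-fold. MT-CO2 rose 2.652-fold and MT-CO3 2.08-fold, where the nuclear-encoded sum rose 2.229-fold, so the lower ratio of complex IV rests largely on MT-CO1. These ratios use counts within a library and so do not depend on the scaling between libraries. No correction for GC content or length enters them.

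Genes that assemble the complexes moved in both directions. For the counts below, 44.3% of all tested genes were higher and 45.0% lower, and 36.8% and 43.4% in the corrected fit. Of 31 complex IV assembly genes 19 rose, 10 fell and 2 (COX17 and PET117) did not pass, with a median of 0.45 (0.32 corrected). COA3 (2.83-fold; log2 0.57 corrected), PET100 (log2 1.64; 0.57 corrected), SCO2, a copper chaperone (1.67; 0.18), and OXA1L, an insertase (1.04; 0.94), rose, while LRPPRC, which stabilises mitochondrial mRNAs, fell by 0.64 and HIGD1A by 0.40; both of the latter were higher when corrected (0.32 and 0.25). The corrected fit had 21 of the 31 higher and 8 lower. For complex III, 7 of 10 rose, UQCC3 by 1.65 (0.90 corrected), and LYRM7 (-1.21), UQCC6 (-0.69) and HCCS, the haem lyase for cytochromes c and c1 (-0.47), fell; the median was 0.54. In the corrected fit 4 were higher, 3 lower and 3 (UQCC1, BCS1L and LYRM7, the last at 0.02) did not pass, UQCC4 turned from 0.77 to -0.32, and the median was 0.06.

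For complex II the assembly factors divided evenly: SDHAF1 (1.05) and SDHAF2 (1.05) rose and SDHAF3 (-0.65) and SDHAF4 (-0.63) fell, and SDHAF1 was lower when corrected (-0.40), which left 1 higher and 3 lower. For complex V, 3 of 6 rose, ATPAF1 fell by 0.24, and TMEM70 and DMAC2L did not pass. In the corrected fit 4 were higher and 1 lower: ATPAF1 turned higher (0.25), ATPAF2 turned from 0.75 to -0.23, and DMAC2L passed as higher (0.29). A pair of complex IV subunits that carry other names parted, NDUFA4 rising by 0.74 and its paralog C15orf48, which can replace it, falling by 0.37 (1.01 and -0.45 corrected); NDUFA4L2 was too low to test.

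In complex I, which feeds the same chain, 33 of 37 nuclear subunit genes rose and 3 fell (NDUFS1 by 0.60, NDUFA5 by 0.23 and NDUFC2 by 0.17), with a median of 1.05 (0.37 corrected). In the corrected fit 30 were higher and 7 lower, with NDUFS1 (0.53) and NDUFA5 (1.07) turned higher and NDUFC2 still lower (-0.13). Of 14 transcription factors and coactivators known to drive respiratory genes 11 were lower, where 45.0% of all tested genes were. ESRRA rose by 0.64, and NRF1 (0.01) and PPRC1 did not pass. Among those that fell were PPARGC1A (-1.70; -0.71 corrected), PPARGC1B (-1.42; -0.84), SP1 (-1.13; -0.30), CREB1 (-1.24) and GABPA (-1.19), and GABPA did not pass when corrected (-0.06). The median of the 14 was -0.71, and -0.12 when corrected, with 5 higher, 7 lower and 2 not passing, ESRRA then lower (-0.42) and CREB1 (0.24), TFAM, YY1, GABPB1 and GABPB2 higher. Over all tested genes 43.4% were lower in the corrected fit. All of the 14 but TFB2M have canonical transcripts of 2000 bases or longer, a class in which all genes had an uncorrected median of -0.32. Of 11 genes that shape cristae or supercomplexes 8 rose, OPA1 (-1.46) and APOOL (-1.45) fell and IMMT did not pass, with a median of 0.89 (0.08 corrected). In the corrected fit 6 were higher, OPA1 (-0.31) and APOOL (-0.25) lower, and 3 did not pass (CHCHD3, CHCHD6 and STOML2).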

How the data were processed

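The deposited table holds unnormalized counts of reads for each gene in 6 libraries, with gene coordinates and a gene length that no test here used. Per the labels' protocols the kit was stranded, selected mRNA, and gave paired reads of 150 bases. The tools listed, without roles, in the submitters' processing notes include STAR 2.7.6a, fastp 0.23.2, edgeR 3.40.2, Subread 1.5.1 and featureCounts, and the build listed is hg38. The strand setting, the annotation release, the handling of reads that match several genes and any collapsing of duplicates are unknown from the sources used here.

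Here counts were tested with edgeR 4.0.16 (R 4.3.3; TMM, filterByExpr, quasi-likelihood test, 3 against 3, no covariate), with Benjamini-Hochberg adjustment over 13710 genes and a threshold of 0.05. The common dispersion was 9.77e-05, the floor of its search, so standard errors are small. The corrected fit used natural splines (5 degrees of freedom) of GC content and log length of the GENCODE 44 canonical transcript as offsets, centred on the median, over the 13694 tested genes with a value; all 52 genes had one. The canonical transcript need not be the one expressed. Alternatives were RLE, upper-quartile and total-count scaling, DESeq2 1.42.0, limma-voom 3.58.1, robust estimation, other filters, a replicate block, and each library left out. The edgeR fit was also run on simulated counts with a far larger dispersion and far fewer changed genes than here. That run therefore does not test the error rates of the fit in these data. No pair of replicates agreed within sampling noise. All 52 genes are in GENCODE 44. Genes described in full are the highest and lowest of each complex, core subunits, ATP5IF1 and paralog sets, and from other lists those that went against the majority, did not pass, or were among the few with the smallest adjusted p. The gene rule and lists were chosen with earlier results of these data known.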

Additional observations from a re-analysis of the deposited data

How the results depend on the processing

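The count of higher respiratory genes was 44 of 46 and ranged from 37 to 45 over all alternatives. With scaling by total count, 7 were lower in place of 1, the median log2 fold change was 0.76, and the direction turned for SDHC (-0.19), SDHD (-0.07), UQCRC2 (-0.18), UQCRFS1 (-0.021, not passing), COX7A2L (-0.26), ATP5MC3 (-0.23) and ATP5MG (-0.26). With the GC and length correction 2 were lower, the median was 0.59, and the direction turned for SDHC (-0.30), CYC1 (-0.30) and CYCS (0.23). Centring that correction on the mean, an alternative chosen after seeing the data, gave 2 lower, a median of 0.60, and -0.29, -0.29 and 0.24 for the same 3 genes. Upper-quartile scaling gave a median of 1.02, and ATP5MG and ATP5MC3 no longer passed; without the filter on low counts ATP5MG did not pass either. Leaving out 1 library gave medians from 1.05 to 1.09 and between 43 and 45 higher genes. Without control replicate 2, COX7A2L passed (0.08, adjusted p = 0.0260), as it did with RLE scaling (0.07, adjusted p = 0.0328).

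With DESeq2, limma-voom, robust estimation and the stricter filter the call of all 46 was the same. With the replicate number as a block, all 46 calls were again the same, and with the block and the GC and length correction together 2 were lower, the median was 0.59 and SDHC (-0.30), CYC1 (-0.30) and CYCS (0.23) turned. Samples of equal number did not deviate together (correlations of -0.01, 0.04 and 0.00 for numbers 1, 2 and 3), so the numbers were not treated as pairs. Depth limits the 6 untested genes, where 3 counts correspond to 0.146 to 0.177 CPM on unscaled library totals.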
